A study of Mus musculus with 9 samples.

Results

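Gnal encodes the alpha subunit of the stimulatory G protein Golf, and the adenylyl cyclases (Adcy genes) are the enzymes that make the second messenger cyclic AMP (cAMP). The genes described here are Gnal, Adcy1, Adcy2, Adcy3, Adcy5, Adcy6, Adcy7, Adcy8 and Adcy9, taken by symbol from the platform annotation: 9 of 18193 named genes, read by 23 of 45037 probe sets. RNA came from the spinal cords of 3 mice of genotype GAD65-GFP, in which a promoter of the GABA-synthesising enzyme GAD65 drives green fluorescent protein, at postnatal day 6. The cord of each animal was divided into dorsal, intermediate and ventral tissue, giving 9 Affymetrix arrays in 3 regions of 3. All arrays share genotype and age, and no treatment is named. The values are those of tissue pieces, in which fewer cells of a type and less RNA per cell cannot be told apart.

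Receptors that couple to Gs or Golf activate adenylyl cyclases, and receptors that couple to Gi or Go restrain several of them. cAMP activates protein kinase A, the Epac proteins and cyclic nucleotide-gated channels, and phosphodiesterases break it down. Golf is best known from olfactory neurons, where it drives Adcy3, and from the striatum, where it links dopamine and adenosine receptors to Adcy5. Variants of GNAL cause an inherited dystonia, and variants of ADCY5 a movement disorder with dyskinesia. The membrane cyclases are classed by regulation: Adcy1, Adcy3 and Adcy8 respond to calcium and calmodulin, Adcy5 and Adcy6 are inhibited by calcium and by Gi, Adcy2 and Adcy7 are stimulated by G protein beta-gamma subunits when Gs is active, and Adcy9 stands apart.

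The members fell into different dorsoventral patterns. Adcy1 and Adcy5 stepped down from dorsal through intermediate to ventral pieces, by 5.72-fold and 2.42-fold over the whole axis. Gnal and Adcy7 were high in dorsal and intermediate pieces and lower in ventral ones, by 1.55-fold and 2.50-fold against dorsal. Adcy2 and Adcy9 were highest in the intermediate region, and Adcy6 was highest in dorsal pieces. Adcy3 was higher in intermediate than in ventral pieces, by 1.40-fold, and Adcy8 was not called in any comparison. Values are log2 expression; differences were tested with limma, the animal being a block, with Benjamini-Hochberg adjustment across 13959 genes, and a gene was called at an adjusted p under 0.05. Errors are standard errors of the fit, and n = 3 in each region.

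In dorsal against ventral pieces 5 of 9 members were called higher (Gnal, Adcy1, Adcy5, Adcy6 and Adcy7) and 2 lower (Adcy2 and Adcy9), where 24.5% of all genes were called higher and 28.2% lower, 52.8% in all. In intermediate against ventral pieces 7 of 9 were called higher and 0 lower, where 23.4% of all genes were higher and 24.9% lower, 48.2% in all. The 2 members without a call there were Adcy6 and Adcy8, and Adcy6 was the only member with a difference below 0. In intermediate against dorsal pieces 2 were called higher (Adcy2 and Adcy9) and 3 lower (Adcy1, Adcy5 and Adcy6), where 15.9% of all genes were higher and 14.2% lower, 30.1% in all. That split over all genes, 2219 higher and 1983 lower, became 3222 and 1540 with each array centred on its median. The median difference over the members was 0.63 for dorsal minus ventral, 0.67 for intermediate minus ventral and 0.04 for intermediate minus dorsal, beside -0.000236, 0 and 0 over all genes. In the F test for any difference between regions 8 of 9 members passed, all but Adcy8, where 58% of all genes passed. The comparisons share arrays, so the counts do not stand apart from each other. All genes here are the 13959 tested, among them genes near the lowest value in the table. The members were brighter, with means from 7.62 (Adcy3) to 11.98 (Adcy1), so the shares do not come from genes of like level.

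**Figure D1:**
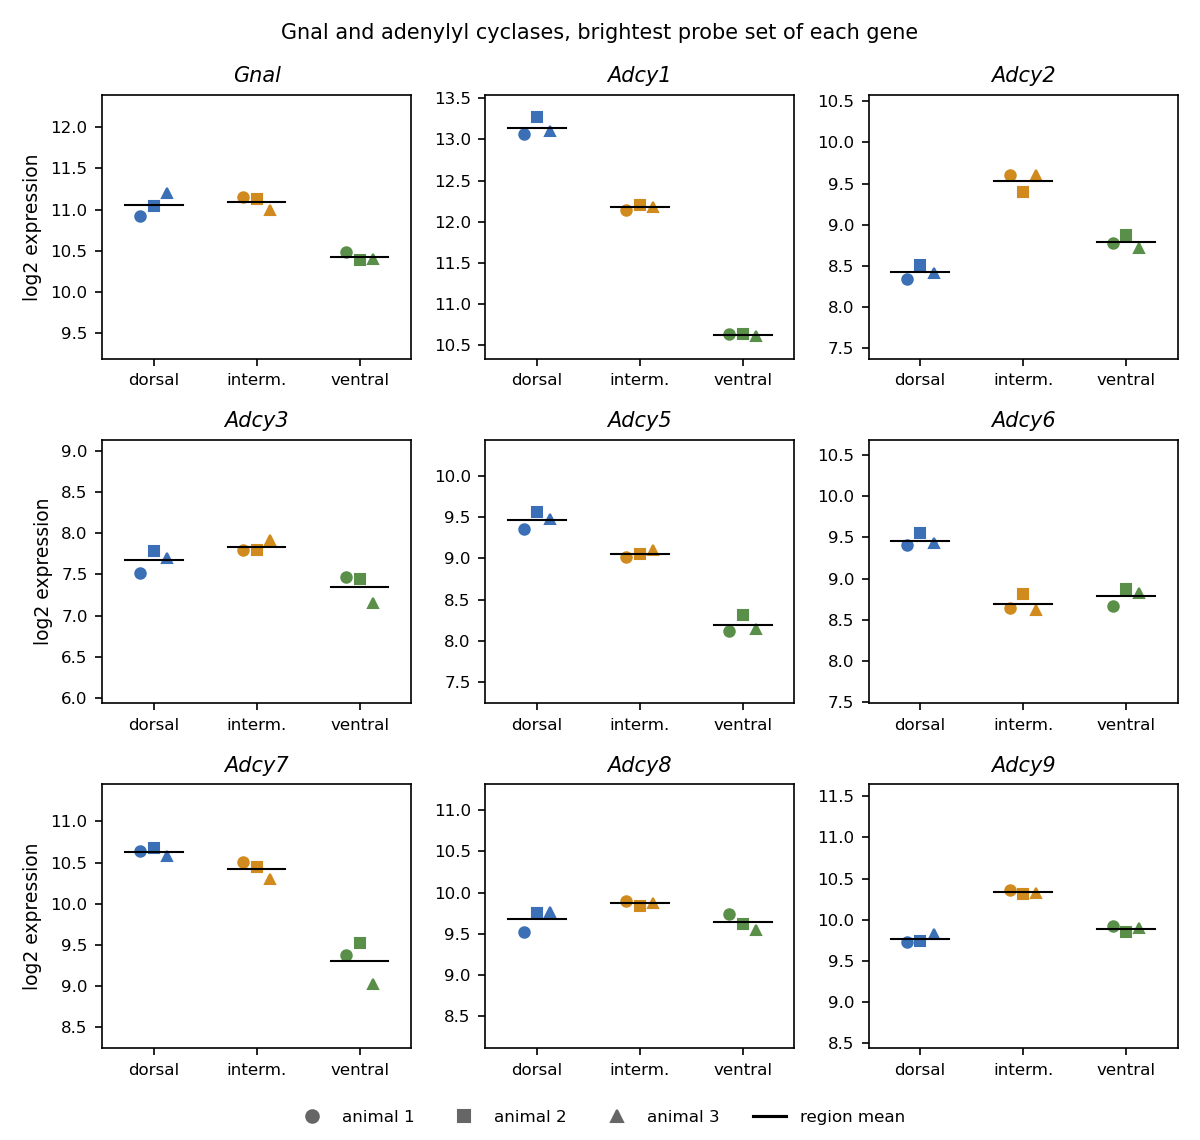
Log2 expression of the 9 genes on each array by region, from the brightest probe set of each gene, with 1 marker an array and a line at the mean of each region (n = 3). Adcy1 steps down from 13.14 to 12.18 and 10.63, Adcy2 and Adcy9 peak in the intermediate region, and the regions of Adcy8 lie close together.

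Gnal was read by 2 probe sets above the floor, the lowest value in the table, and by another that stood at the floor on all arrays. On the brighter, 1442021_at, the dorsal arrays of animals 1, 2 and 3 read 10.92, 11.04 and 11.20, the intermediate arrays 11.15, 11.13 and 11.00 and the ventral arrays 10.49, 10.39 and 10.40. Dorsal and intermediate values overlapped, and all ventral values lay below both. Intermediate exceeded ventral pieces 1.59-fold (0.67 ± 0.09, adjusted p = 0.00352), and dorsal exceeded ventral pieces 1.55-fold (0.63 ± 0.09, adjusted p = 0.00373). Intermediate minus dorsal was 0.04 ± 0.09, adjusted p = 0.829. Both calls against ventral pieces were lost without animal 2, at 0.63 (adjusted p = 0.0669) and 0.62 (adjusted p = 0.0666). The other probe set, 1439957_at, read 10.26, 10.58 and 10.36 in dorsal, 10.24, 10.24 and 10.33 in intermediate and 9.31, 9.43 and 9.41 in ventral pieces. Here too all ventral values were the lowest, with a larger step: 1.01 ± 0.07, adjusted p = 0.000455 for dorsal minus ventral and 0.88 ± 0.07, adjusted p = 0.000957 for intermediate minus ventral, adjusted over 25676 probe sets. Its intermediate minus dorsal difference was -0.13 ± 0.07, adjusted p = 0.265, opposite in sign to that of the brighter probe set, with neither called. Over all probe sets, 45.8% were called in dorsal minus ventral, 40.3% in intermediate minus ventral and 24.3% in intermediate minus dorsal.

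Adcy1, a calcium-stimulated cyclase studied in synaptic plasticity, had the widest span of the members. Its dorsal arrays read 13.06, 13.27 and 13.10, its intermediate arrays 12.14, 12.21 and 12.18 and its ventral arrays 10.64, 10.63 and 10.61. No values of different regions overlapped. Intermediate pieces lay 1.96-fold below dorsal ones (-0.97 ± 0.04, adjusted p = 0.000455) and 2.92-fold above ventral ones (1.55 ± 0.04, adjusted p = 0.000126). Dorsal minus ventral was 2.52 ± 0.04, adjusted p = 2.47e-05, and between 2.46 and 2.56 with any 1 animal or array left out. The dimmer probe set 1445359_at gave 2.82 ± 0.25, adjusted p = 0.000895 for dorsal minus ventral and 1.96 ± 0.25, adjusted p = 0.00354 for intermediate minus ventral over probe sets. Its intermediate minus dorsal difference, -0.86 ± 0.25, adjusted p = 0.07, was not called. It read 7.18 on all 3 intermediate arrays, so its spread there was not measured.

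Adcy8, also stimulated by calcium and calmodulin, was the flattest member. Dorsal arrays read 9.52, 9.76 and 9.77, intermediate arrays 9.90, 9.84 and 9.87 and ventral arrays 9.75, 9.62 and 9.54. All intermediate values lay above the others, and dorsal and ventral values overlapped. None of the differences was called: 0.19 ± 0.09, adjusted p = 0.208 for intermediate minus dorsal, 0.23 ± 0.09, adjusted p = 0.101 for intermediate minus ventral and 0.05 ± 0.09, adjusted p = 0.756 for dorsal minus ventral. Intermediate minus ventral passed without animal 1 (adjusted p = 0.0316) and without dorsal array 1, its lowest dorsal value (adjusted p = 0.0136).

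Adcy3, the cyclase of olfactory and neuronal cilia, read 7.52, 7.79 and 7.70 on dorsal, 7.79, 7.79 and 7.92 on intermediate and 7.47, 7.44 and 7.15 on ventral arrays of its brightest probe set, 1436928_s_at. All ventral values were the lowest, and the highest dorsal value lay just under the lowest intermediate one. Intermediate exceeded ventral pieces 1.40-fold (0.48 ± 0.12, adjusted p = 0.0241). This call was lost in 6 of 12 fits without an animal or array: without animal 1 (adjusted p = 0.0729), 2 (0.114) or 3 (0.116), intermediate array 1 (0.0819) or 3 (0.0874), or ventral array 2 (0.0731). Dorsal minus ventral was 0.32 ± 0.12, adjusted p = 0.0781 and intermediate minus dorsal 0.17 ± 0.12, adjusted p = 0.381. The probe set 1421960_at gave larger differences of the same signs, 0.71 ± 0.09, adjusted p = 0.00394 for intermediate minus ventral and 0.46 ± 0.09, adjusted p = 0.0141 for dorsal minus ventral. A dim probe set, 1436929_x_at, read between 2.65 and 3.09 with no call, and another was at the floor on all arrays.

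**Figure D2:**
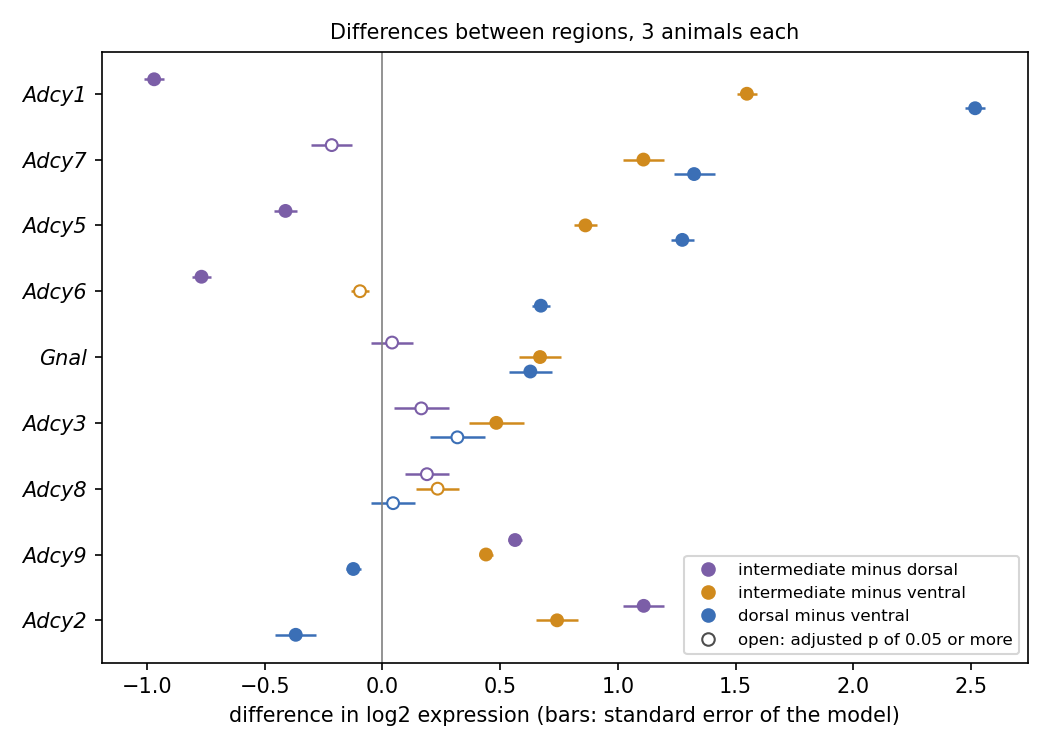
Differences in log2 expression between regions for each gene (x axis), with standard errors as bars and filled points where the adjusted p was under 0.05 (n = 3 animals). Adcy1 has the largest dorsal minus ventral difference, 2.52, and Adcy2 and Adcy9 have dorsal minus ventral differences below 0 and intermediate minus dorsal differences above 0.

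Adcy5, the cyclase that partners Golf in the striatum, followed a step pattern like that of Adcy1 with smaller steps. Dorsal arrays read 9.35, 9.56 and 9.48, intermediate arrays 9.01, 9.05 and 9.10 and ventral arrays 8.12, 8.31 and 8.15. The 3 regions did not overlap. Dorsal exceeded ventral pieces 2.42-fold (1.27 ± 0.05, adjusted p = 7.46e-05), a difference between 1.24 and 1.31 with any 1 animal or array left out. Intermediate exceeded ventral pieces 1.82-fold (0.86 ± 0.05, adjusted p = 0.000321). Intermediate minus dorsal was -0.41 ± 0.05, adjusted p = 0.00457, a call lost without animal 1 (adjusted p = 0.0609) or 3 (0.0668). These values rest on 1 of 4 probe sets, 1455296_at: 2 others stood at the floor and 1447696_x_at read 4.25 on all arrays.

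Adcy6, the closest relative of Adcy5, read 9.40, 9.55 and 9.43 on dorsal, 8.65, 8.81 and 8.62 on intermediate and 8.66, 8.88 and 8.83 on ventral arrays. Intermediate and ventral values overlapped, and all dorsal values lay above both. Dorsal exceeded intermediate pieces 1.70-fold (intermediate minus dorsal -0.77 ± 0.04, adjusted p = 0.000562) and ventral pieces 1.59-fold (0.67 ± 0.04, adjusted p = 0.000207). Intermediate minus ventral was -0.10 ± 0.04, adjusted p = 0.11. In each animal the intermediate value of Adcy6 lay below the ventral one, and that of Adcy5 above it.

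Adcy2, stimulated by beta-gamma subunits, read 8.35, 8.51 and 8.41 on dorsal, 9.60, 9.40 and 9.60 on intermediate and 8.78, 8.88 and 8.71 on ventral arrays of its single probe set. No regions overlapped, and the intermediate region was the highest. It exceeded dorsal pieces 2.16-fold (1.11 ± 0.09, adjusted p = 0.00155) and ventral pieces 1.67-fold (0.74 ± 0.09, adjusted p = 0.00227, and adjusted p = 0.0519 without animal 3). Dorsal minus ventral was -0.37 ± 0.09, adjusted p = 0.0209. That call was lost without animal 1 (adjusted p = 0.146) or 3 (0.11), dorsal array 1 (0.0792) or 3 (0.0768), or ventral array 1 (0.0728) or 2 (0.0826).

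Adcy7, of the same regulatory class, had another pattern. It read 10.64, 10.67 and 10.58 on dorsal, 10.51, 10.45 and 10.29 on intermediate and 9.38, 9.53 and 9.02 on ventral arrays. The ventral values were the lowest by a wide gap, and the intermediate values were all just below the dorsal ones. Dorsal exceeded ventral pieces 2.50-fold (1.32 ± 0.09, adjusted p = 0.000295) and intermediate exceeded ventral pieces 2.16-fold (1.11 ± 0.09, adjusted p = 0.00069). Intermediate minus dorsal, -0.22 ± 0.09, adjusted p = 0.141, was not called. The probe set 1450065_at gave 1.58 ± 0.12, adjusted p = 0.000614 for dorsal minus ventral and 1.45 ± 0.12, adjusted p = 0.00109 for intermediate minus ventral, with dorsal and intermediate values that overlapped. Another probe set was at the floor on all arrays. Adcy7 is known from immune cells, and the summed linear level of 7 microglial markers was 3644 to 4417 in dorsal, 2513 to 2984 in intermediate and 4386 to 4877 in ventral pieces. Of the 7, 0 were called in dorsal against ventral pieces. In intermediate pieces 6 were lower than in dorsal and 6 lower than in ventral ones, where 14.2% and 24.9% of all genes were. Which cells carry the Adcy7 signal was not tested.

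Adcy9, a widely expressed cyclase that responds weakly to forskolin, peaked in the intermediate region on all 4 of its probe sets. On the brightest, 1419811_at, dorsal arrays read 9.73, 9.75 and 9.83, intermediate arrays 10.36, 10.32 and 10.32 and ventral arrays 9.93, 9.85 and 9.90. No regions overlapped. Intermediate exceeded dorsal pieces 1.48-fold (0.56 ± 0.03, adjusted p = 0.000712) and ventral pieces 1.36-fold (0.44 ± 0.03, adjusted p = 0.000549), and neither call was lost without any 1 animal or array. The other 3 probe sets gave 0.53, 0.69 and 0.64 over dorsal and 0.59, 0.51 and 0.33 over ventral pieces, all called. Dorsal minus ventral was small (-0.12 ± 0.03, adjusted p = 0.0259) and lost its call in 8 of 12 fits: without animals 1, 2 or 3 (adjusted p = 0.101, 0.143 and 0.0613), dorsal or intermediate array 2 (0.0765 and 0.0518), or ventral arrays 1, 2 or 3 (0.0928, 0.0628 and 0.0673). On 1418586_at it had the opposite sign (0.06 ± 0.09, adjusted p = 0.699).

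**Figure D3:**
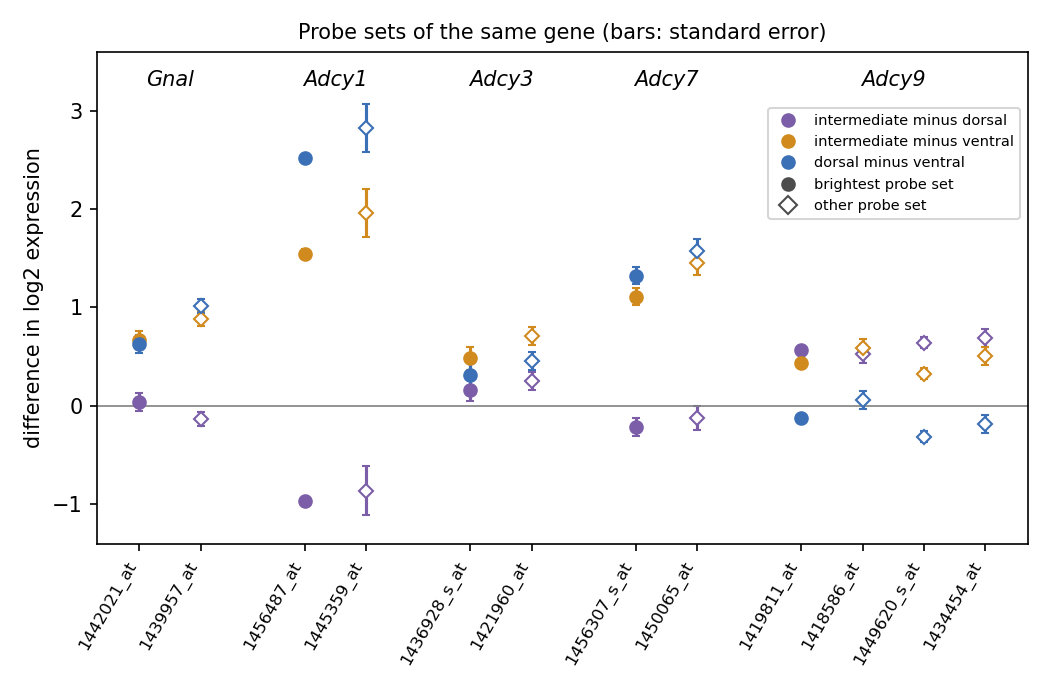
Differences in log2 expression between regions for the probe sets with a mean of at least 6 of genes that have several (circles the brightest, diamonds the others, bars the standard error). The 4 probe sets of Adcy9 have intermediate minus dorsal differences between 0.53 and 0.69.

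Of the 23 probe sets of the members, 5 were at the floor on all arrays and 19 entered the fit over probe sets. The Adcy7 probe set 1420970_at is in both counts, as it had 1 value within the floor on all arrays and could not pass. Of the 19 fitted, 14 passed the F test, where 49.7% of all probe sets did, and 9 passed without animal 3. In intermediate minus the mean of dorsal and ventral, 6 members were called higher and 1 lower, where 18.8% of all genes were higher and 17.9% lower, 36.7% in all. Those higher were Adcy2 (0.93 ± 0.08, adjusted p = 0.00189), Adcy9 (0.50 ± 0.03, adjusted p = 0.00102), Adcy7 (0.45 ± 0.08, adjusted p = 0.0113), Gnal (0.36 ± 0.08, adjusted p = 0.0247), Adcy1 (0.29 ± 0.04, adjusted p = 0.00558) and Adcy5 (0.23 ± 0.04, adjusted p = 0.0146). Of those 6, only Adcy2 and Adcy9 were also called higher than dorsal pieces alone. Adcy1 and Adcy5 were called lower than dorsal pieces, and Gnal and Adcy7 had no call against them. The member called lower than the mean of dorsal and ventral was Adcy6 (-0.43 ± 0.03, adjusted p = 0.00171). The count of members called higher fell to 2 without animal 1, 1 without animal 3, 3 without intermediate array 1 and 4 without intermediate array 3. Adcy6 and Adcy9 kept this call in all 12 fits without an animal or array. Gnal lost it in 8 of 12, without each of the animals among them (adjusted p up to 0.187), Adcy5 and Adcy7 in 4 each, without animals 1 or 3 or intermediate arrays 1 or 3 (up to 0.146 and 0.133), Adcy1 in 2, without animals 1 or 3 (up to 0.0953), and Adcy2 in 1, without animal 3 (0.0518). Adcy1 also lost it with its most variable probe set (adjusted p = 0.112) or the mean of its probe sets (0.0533).

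Over the 9 arrays, which are 3 regions of 3, correlations between members are given as a description. Adcy1 and Adcy5 had a Pearson r of 0.991, Adcy5 and Adcy7 of 0.96, Adcy1 and Adcy7 of 0.947, and Adcy2 and Adcy9 of 0.969. Gnal had r of 0.929 with Adcy7, 0.891 with Adcy5 and 0.232 with Adcy2, and Adcy2 and Adcy6 ran opposite (-0.794). Among 6433 other genes with a mean of at least 6 and 9 distinct values, those most like Gnal were 2810049E08Rik (r = 0.9885), Chd6 (0.9873), Slitrk4 (0.9863), Gprin3 (0.9855) and N4bp2l1 (0.9824). Those most like Adcy5 were Prr36 (0.9977), Prmt5 (0.997), Zfp157 (0.9969), Grip2 (0.9966) and Stmn1 (0.9965).

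Promoter windows of 300 bases, 250 before to 50 after a transcription start, were matched by symbol in a RefSeq table of build GRCm38.p6 for 6 of 9 members (Adcy1, Adcy2, Adcy3, Adcy5, Adcy7 and Adcy9), in 9 windows. Gnal, Adcy6 and Adcy8 had no entry. Those of the stepped genes Adcy1 and Adcy5 and of the intermediate-high genes Adcy2 and Adcy9 are shown because the members of each pair moved together. Capitals mark the GC box GGGCGG and the core TGACG of the cAMP response element, on either strand. The windows are chr11:7063183-7063482 (plus strand) for Adcy1, chr16:35154614-35154913 (plus strand) for Adcy5, chr13:68999492-68999791 (minus strand) for Adcy2 and chr16:4420449-4420748 (minus strand) for Adcy9.
Adcy1: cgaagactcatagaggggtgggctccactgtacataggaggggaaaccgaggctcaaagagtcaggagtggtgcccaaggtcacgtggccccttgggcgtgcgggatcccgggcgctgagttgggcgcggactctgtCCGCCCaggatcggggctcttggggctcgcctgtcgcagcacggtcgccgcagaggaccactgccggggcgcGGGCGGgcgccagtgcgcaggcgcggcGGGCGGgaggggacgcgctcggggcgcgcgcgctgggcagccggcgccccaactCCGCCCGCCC
Adcy5: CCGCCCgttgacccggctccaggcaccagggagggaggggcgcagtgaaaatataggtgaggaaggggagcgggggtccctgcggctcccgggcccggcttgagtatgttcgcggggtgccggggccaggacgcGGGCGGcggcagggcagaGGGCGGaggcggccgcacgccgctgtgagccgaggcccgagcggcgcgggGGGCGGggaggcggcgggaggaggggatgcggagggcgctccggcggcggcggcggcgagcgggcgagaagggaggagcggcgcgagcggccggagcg
Adcy2: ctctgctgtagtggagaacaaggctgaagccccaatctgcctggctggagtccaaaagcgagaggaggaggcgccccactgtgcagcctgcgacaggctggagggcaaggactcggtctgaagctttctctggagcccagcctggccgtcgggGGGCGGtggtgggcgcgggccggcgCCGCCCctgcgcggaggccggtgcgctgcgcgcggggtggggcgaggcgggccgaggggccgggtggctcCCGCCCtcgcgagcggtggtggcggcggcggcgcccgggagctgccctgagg
Adcy9: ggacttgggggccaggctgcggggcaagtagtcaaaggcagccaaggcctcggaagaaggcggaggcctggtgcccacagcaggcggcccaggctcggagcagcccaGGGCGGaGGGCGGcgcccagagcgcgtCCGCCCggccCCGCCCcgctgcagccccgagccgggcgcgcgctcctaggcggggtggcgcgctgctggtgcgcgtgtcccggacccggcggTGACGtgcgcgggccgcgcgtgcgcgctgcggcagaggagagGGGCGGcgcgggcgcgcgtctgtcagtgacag

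G and C made up 74.0% of the Adcy1 window, 79.0% for Adcy5, 75.0% for Adcy2 and 78.3% for Adcy9. GC boxes numbered 5, 4, 3 and 5 in that order, so both pairs held them. Over the members 6 of 9 windows had a GC box, beside 35.7% of 32851 windows of the same length. The core of the cAMP response element was in 2 of 9, those being 1 window of Adcy7 and that of Adcy9, beside 20.8% of all windows. The full element, in which the core runs into its own reverse complement, was in 0 of 9 (1.79% of all windows), and the TATA box TATAAA in 0 of 9 (13.6%). The Olf-1 palindrome of the EBF factors, TCCC and GGGA with 2 bases between, was also in 0 of 9 (0.904%).

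Of the other genes of the cAMP pathway, 136 were tested. In dorsal against ventral pieces 75 were called higher and 20 lower (12 lower without animal 1), with a median of 0.31, where 24.5% of all genes were called higher and 28.2% lower. In intermediate against ventral pieces 74 were higher and 16 lower (9 lower without animal 1), with a median of 0.33, where 23.4% and 24.9% of all genes were. In intermediate against dorsal pieces 26 were higher and 37 lower, where 15.9% and 14.2% of all genes were, so the share called higher lay near that of all genes. These last counts fell to 8 and 17 without animal 1, 12 and 21 without animal 3, 24 lower without animal 2, and 16 and 17 higher without dorsal or intermediate array 3. Gnas, the Gs alpha gene, was higher in intermediate than in ventral pieces (0.22 ± 0.05, adjusted p = 0.0202), a call lost in 6 of 12 fits: without animals 1 or 3, intermediate arrays 1 or 3, or ventral arrays 2 or 3 (adjusted p up to 0.171). Adcy4 was dim, between 3.39 and 3.92, with no call, and Adcy10, the soluble cyclase, was at the floor on all arrays.

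Among the partners of the G alpha subunits, 7 of 13 beta and gamma genes were higher in dorsal than in ventral pieces and 4 lower, where 24.5% and 28.2% of all genes were. The share of these genes called lower was near that of all genes. The highest difference was that of Gng2 (1.71 ± 0.05, adjusted p = 4.38e-05), and Gng7, the gamma subunit that joins Golf in the striatum, was higher by 0.47 ± 0.11, adjusted p = 0.0196. Of 5 inhibitory G alpha genes 3 were higher and 2 lower; Gnai3, one of the latter (-1.02 ± 0.26, adjusted p = 0.0269), lost its call in 8 of 12 fits, at adjusted p up to 0.198. Gnao1, which encodes Go alpha, was higher by 1.34 ± 0.06, adjusted p = 9.38e-05, but its other probe set gave -1.09 (adjusted p = 0.00492). Of 11 genes of G protein folding and regulation 6 were higher, led by the GTPase-activating Rgs8 (2.78 ± 0.21, adjusted p = 0.000442), and 1 lower (0 without animal 3). Ric8b, a chaperone of Golf alpha, was higher in intermediate than in ventral pieces (0.59 ± 0.13, adjusted p = 0.0159). Whether this call and that of Gng7 held without an animal or array was not recorded.

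Of the genes for receptors that couple to Gi or Go, 13 of 24 were higher in dorsal than in ventral pieces and 3 lower, where 24.5% and 28.2% of all genes were. Drd2, a dopamine receptor gene, read 4.85 to 5.14 in dorsal pieces and was at the floor on all ventral arrays, at least 7.23-fold lower (adjusted p = 3.37e-05). Its spread in ventral pieces was not measured, which that adjusted p does not allow for. Htr1b, a serotonin receptor gene, was higher in intermediate than in dorsal pieces (2.87 ± 0.07, adjusted p = 0.000169). Of those for receptors that couple to Gs or Golf, 7 of 18 were higher in dorsal than in ventral pieces and 3 lower (1 without animal 1), which in all is near the 52.8% of all genes called in either direction. Drd1, the dopamine receptor that uses Golf in the striatum, was dim, at 4.08 in dorsal, 3.66 in intermediate and 3.46 in ventral pieces, with a dorsal minus ventral difference of 0.62 ± 0.10, adjusted p = 0.00593.

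Downstream of cAMP, all 9 genes of protein kinase A subunits and inhibitors were called higher in intermediate than in ventral pieces (6 without animal 3), where 23.4% of all genes were. Their median difference was 0.63, and the inhibitor gene Pkib was higher by 1.31 ± 0.11, adjusted p = 0.00084. The other counts of this paragraph are for dorsal against ventral pieces, where 24.5% of all genes were higher and 28.2% lower, 52.8% in all. Counted in either direction, the phosphodiesterase, A-kinase anchoring, CREB and other effector lists lay not far above that last share. Of 14 phosphodiesterase genes 7 were higher in dorsal than in ventral pieces (3 without animal 2) and 2 lower (1 without animal 1); Pde1c, activated by calmodulin, was higher by 1.70 ± 0.26, adjusted p = 0.00472, a call lost without animal 2 (adjusted p = 0.0607). Of 11 calmodulin kinase and calmodulin-binding genes 10 were higher in dorsal pieces and 0 lower, with a median of 1.33, led by Camk2a (4.12 ± 0.11, adjusted p = 3.97e-05). Of 10 A-kinase anchoring genes 6 were higher and 0 lower, led by Akap7 (1.47 ± 0.05, adjusted p = 5.01e-05). Of 7 CREB family and coactivator genes 4 were higher and 0 lower; among them Creb1 was higher by 0.26 ± 0.02, adjusted p = 0.000626, while another of its probe sets gave -0.52 (adjusted p = 0.042). Of 5 other cAMP effectors 1 was higher (0 without animals 2 or 3, dorsal arrays 2 or 3, or ventral array 3) and 2 lower (0 without animal 1). Of 7 genes of striatal cAMP signalling 6 were higher and 1 lower (0 without animal 1); Arpp21 was higher by 2.77 ± 0.08, adjusted p = 4.19e-05. Of 5 tested EBF and olfactory transduction genes 3 were higher, Ebf1 (5.19 ± 0.25, adjusted p = 0.000131), Ebf2 (9.71 to 9.97 in dorsal and 2.26 to 2.28, close to the floor, in ventral pieces, adjusted p = 0.000152) and Ebf3 (6.14 ± 0.09, adjusted p = 2.47e-05), and 1 lower (0 without animal 1).

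**Figure D4:**
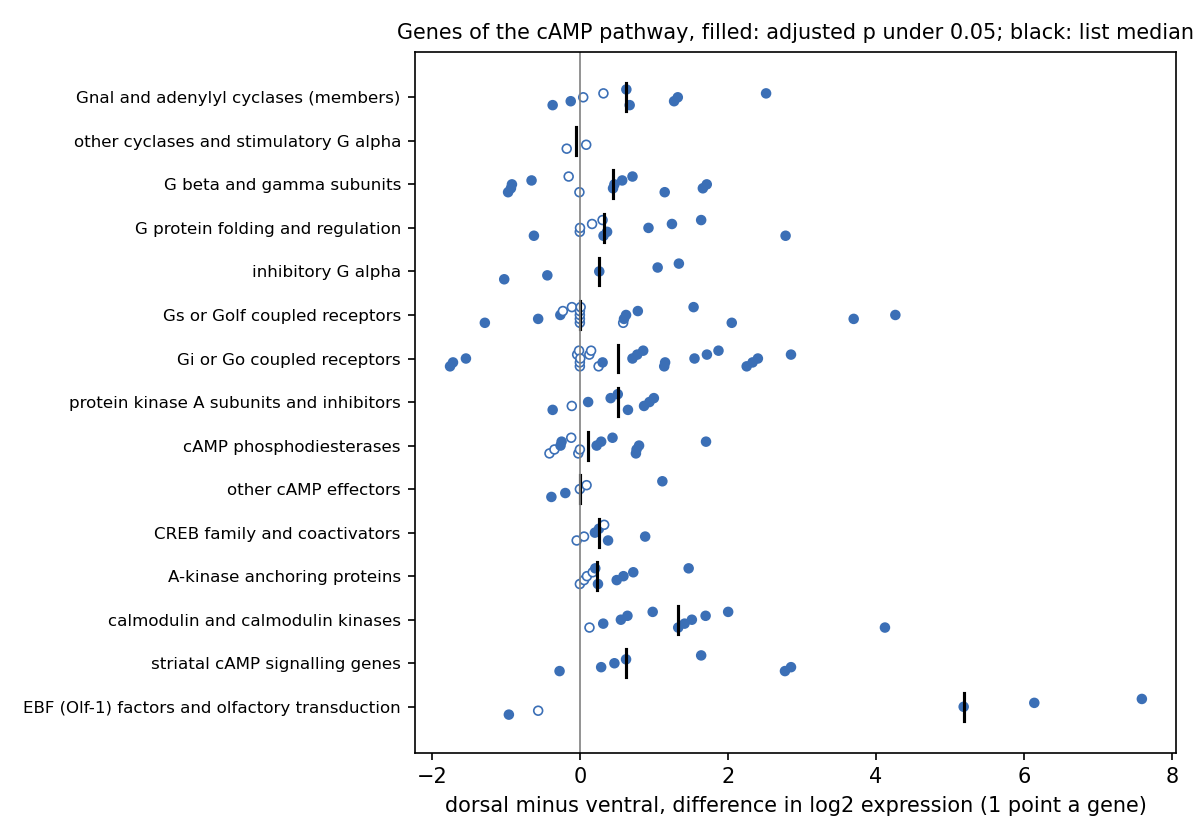
Dorsal minus ventral differences in log2 expression for the members and the tested genes of each pathway list, 1 point a gene, filled where the adjusted p was under 0.05, with each list's median. The members have a median of 0.63 and the calmodulin list of 1.33.

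Cell type markers differed between regions as well, and their part in the results above was not tested. Summed on a linear scale, 6 neuronal markers ranged over 52476 to 58340 in dorsal, 55870 to 60282 in intermediate and 30505 to 31312 in ventral pieces. All 6 were called higher in intermediate than in ventral pieces, where 23.4% of all genes were. The 7 markers of dorsal excitatory neurons summed to 21037 to 23927, 15742 to 17111 and 4594 to 4955, and 4 of inhibitory neurons to 19152 to 20859, 15804 to 16122 and 4036 to 4651, in the same order. These sums follow the brightest genes: in intermediate against dorsal pieces 3 of the 4 inhibitory markers were called higher and 1 lower, with a median difference of 1.00. Over all genes 15.9% were higher and 14.2% lower there. Against ventral pieces all 4 inhibitory markers were higher in intermediate ones, where 23.4% of all genes were. In dorsal against ventral pieces, 6 of 6 astrocyte, 6 of 7 oligodendrocyte lineage, 6 of 7 endothelial and mural and 5 of 5 ependymal markers were lower, where 28.2% of all genes were. The ependymal markers were also higher in intermediate than in dorsal pieces, in 5 of 5 genes with a median difference of 2.16, where 15.9% of all genes were. Against ventral pieces 1 of 5 was called higher in intermediate ones and 4 were not called (median 0.48), where 23.4% of all genes were higher. Ependymal sums were 119 to 158 in dorsal, 465 to 599 in intermediate and 422 to 446 in ventral pieces. Markers of meningeal cells and fibroblasts summed to 2359 to 3214 in intermediate pieces, against 11726 to 26052 in dorsal and 15473 to 20881 in ventral ones, and 2 of Schwann cells to 319 to 668 against 4368 to 16855 and 6349 to 9408. Motor neuron markers summed to 31 to 33 in dorsal and 674 to 915 in ventral pieces, with Chat, Slc5a7 and Slc18a3 at the floor on all 9 arrays. The erythroid sum was 9 on every array, with Hba-a1 at the floor.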

How the data were processed

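Per the labels' protocols, 500 ng of total RNA a sample was made into biotin-labelled cRNA for Affymetrix arrays. The table the authors deposited holds 1 value for each of 45037 probe sets on 9 arrays, read here as log2 because values run from 2.146 to 16.27. Scale, summarisation and normalisation are not given in the sources used here, and every fold rests on that reading. On an array, 35.97% to 36.26% of values lay within 0.01 of the lowest, called the floor. Array medians were 3.66 to 3.752, and arrays of 1 region correlated at 0.998 or more. The number of arrays limits the precision.

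The annotation gave 34945 probe sets 1 gene symbol, 932 several and 9160 none, and only the first were named. Each gene was taken from its brightest probe set and tested where its mean reached the 30th percentile of probe set means (13959 of 18193 genes, all 9 members among them). That cut, 2.14606, lay within 0.01 of the lowest value, so it removed only genes with a mean at the floor and kept dim genes above it. With only genes of a mean of at least 6, 6878 were called for dorsal minus ventral, beside 7364. Most calls thus fell on brighter genes, while dim ones still count in the shares over all genes. Of the genes tested, 2277 had 3 identical values above the floor within a region, which understates their spread. Genes with a whole region at the floor are not in that number, and their spread there was not measured either. limma 3.58.1 (R 4.3.3) fitted region and animal over all arrays (4 residual degrees of freedom), two-sided; a second fit took 25676 probe sets. On simulated data for intermediate minus dorsal (13959 genes), changes were planted in genes with a mean of at least 6. Of log2 changes of 1, 93% were recovered and of changes of 2, 99%, with 17 false calls among the other genes. Only 100 genes were changed by each amount, whereas 30.1% of all genes were called in the data. The simulated noise was normally distributed and did not keep the floor or the ties. Recovery and false calls in the real data may therefore differ. Recovery of dimmer genes and of changes below 1, the size of most member differences in this comparison, was not simulated.

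Titles number the animals, which is the source of the pairing. With each gene's region mean subtracted, arrays of different regions sharing an animal had a mean correlation of 0.081 (-0.0661 to 0.246, 9 pairs). Arrays of different regions and animals had -0.0411 (18 pairs). The subtraction ties this value to the first, so it is no separate comparison.

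Members and lists were chosen with earlier results of these data known. The text names every member, genes among the 3 largest called differences of a list in a comparison, and the 5 genes most like Gnal and Adcy5; Gng7, Ric8b, Drd1, Adcy4 and Adcy10 were added for their roles, after their values were seen. Alternatives changed the block, probe set choice, filter, scaling, moderation and arrays fitted, and left out each animal or array. The single calls of Gng7, Ric8b and Drd1 were not followed through these alternatives. Figures used matplotlib 3.10.9.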

Additional observations from a re-analysis of the deposited data

How the results depend on the processing

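Over alternatives other than left-out samples, 388 of 423 member values kept direction and side of the threshold, 9 lost a call, 23 gained one and 3 changed sign. The sign changes were in uncalled differences: Gnal for intermediate minus dorsal with the most variable probe set (-0.132) or the mean of probe sets (-0.0454), and Adcy8 for dorsal minus ventral with centred arrays (-0.00144). Without the replicate block, members called were 2 higher and 3 lower for intermediate minus dorsal, 8 and 0 for intermediate minus ventral and 6 and 2 for dorsal minus ventral; without it Adcy8 passed for intermediate minus ventral (adjusted p = 0.0432) and so did Adcy3 for dorsal minus ventral (0.0376). Members lower in dorsal than ventral pieces numbered 1 with the most variable probe set, the mean of probe sets, a mean of at least 6, 9 distinct values or only the arrays compared. Creb1 changed sign for dorsal minus ventral with the most variable probe set (-0.522) and the mean (-0.0381), and for intermediate minus dorsal with the former (0.092), as did Gnas for intermediate minus ventral (-0.0306). Over all genes, 10349 and 11751 calls were made for intermediate and dorsal minus ventral when each probe set counted, which tests more features, and 2105 for intermediate minus dorsal with only those arrays, which fits fewer.

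With 1 animal or array left out, members called ranged from 2 to 2 higher and 2 to 3 lower for intermediate minus dorsal, 5 to 8 higher and 0 to 0 lower for intermediate minus ventral, 4 to 5 and 0 to 2 for dorsal minus ventral, and 1 to 7 and 1 to 1 against the mean of dorsal and ventral. Members passing the F test ranged from 6 to 9 and their probe sets from 9 to 15. Genes called ranged from 1464 to 3707, 4200 to 6658, 5234 to 7125 and 1477 to 5056 in the same order of comparisons. Gnal for intermediate minus dorsal ranged from -0.0564 to 0.16, with the sign changed without animal 1 (-0.0549), dorsal array 1 (-0.0564) or intermediate array 1 (-0.00529), and Adcy8 for dorsal minus ventral from -0.0446 to 0.179, with the sign changed without animal 3 (-0.0446), dorsal array 2 (-0.00297) or 3 (-0.0211), or ventral array 3 (-0.0232). The cause of these changes was not tested.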
